A study of Mus musculus with 10 samples.

Results

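The genes described here are 10 genes of fatty acid synthesis and its control, Pnpla3, Mlxipl, Srebf1, Acly, Acaca, Acacb, Fasn, Elovl6, Scd2 and Thrsp, out of 27151 genes in the deposited table. They were chosen by name as a pathway list around Pnpla3, and the list was drawn up with the normalised reads of these 10 libraries known. Their differences between the groups are therefore a description and carry no test. The libraries are poly-A RNA of tongue from C57BL/6J mice given 4NQO, a chemical carcinogen of the mouth. In 6 libraries the mice had received SP2509, an inhibitor of the histone demethylase LSD1, and in 4 they had received vehicle. Every library, vehicle included, comes from a mouse exposed to 4NQO, so no unexposed tongue stands beside them. The labels state neither dose, time nor the age and sex of the mice, and the titles of the treated libraries read SP2509h without saying what the h stands for.

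Fatty acids are built in the cytosol from acetyl-CoA. Acly, the ATP citrate lyase, releases acetyl-CoA from citrate, acetyl-CoA carboxylase turns it into malonyl-CoA, and fatty acid synthase, the product of Fasn, joins these units into palmitate, which elongases such as Elovl6 lengthen and stearoyl-CoA desaturases such as Scd2 desaturate. The transcription factors SREBP-1, from Srebf1, and ChREBP, from Mlxipl, switch these genes on in response to insulin and to sugar, best known in liver and adipose tissue. Pnpla3 encodes a patatin-like phospholipase of lipid droplets that in mouse liver is itself induced by feeding through SREBP-1.

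Values are normalised reads, the reads of a gene after division by the size factor of its library. The libraries held 15748571 to 19375555 reads in SP2509 and 9180844 to 14768955 in vehicle, of which mitochondrial genes took 24.0% to 32.2% in SP2509 and 35.3% to 52.1% in vehicle. SP2509 replicates 1 and 2, and 4 and 5, were each more alike than other pairs. At high read counts the variance between their libraries was 3.49 and 3.72 times that of counting error. It was 11.1 times or more in all other pairs of a group. The 2 close pairs were averaged into 1 unit each, so that SP2509 means and SDs rest on 4 units. All 8 keratinocyte and all 8 skeletal muscle markers, the types that make up most of a tongue, were above 0 in every library. The composition of the SP2509 libraries was uneven. The summed level of 6 lingual gland markers was 293523 and 304609 normalised reads in SP2509 replicates 4 and 5. It was 23.1 to 788 in SP2509 replicates 1, 2, 3 and 6, and 38.9 to 390.0 in vehicle. The summed level of the 8 muscle markers was highest, at 617776, and that of the 8 keratinocyte markers lowest, at 50843, in SP2509 replicate 6, against muscle sums of 223157 to 303280 and keratinocyte sums of 124886 to 252532 in SP2509 replicates 1 to 5. In vehicle the sums were 114605 to 277288 for muscle and 83772 to 122133 for keratinocytes. All 8 fold changes were positive in each of these lists and none was called, nor was any marker of 4 further lists (sebaceous gland, hepatocyte, macrophage and fibroblast).

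The difference between SP2509 and vehicle was uneven over the pathway. Pnpla3 and Mlxipl were lower in every SP2509 library than in any vehicle library. The values of the other 8 genes overlapped between the groups, with log2 fold changes between -0.39 for Acacb and 0.54 for Fasn, each smaller than 2 of its SEs. All 10 genes passed the filter on low values, 5 had a positive and 5 a negative log2 fold change, and their median was -0.06, against 0.02 over all 17088 genes tested. Of the 10, 2 were among the genes called by limma (adjusted p under 0.05 over all genes tested), both lower, where 9.1% of all tested genes were called in either direction, 4.15% were called lower and 4.95% higher. Unless stated otherwise, fold changes, SEs and calls take the 10 libraries as separate, close pairs included, while means and SDs rest on the averaged units. With the close pairs averaged, 0 of all tested genes were called higher and 0 lower. The 2 genes without overlap stand beside 5.11% of all tested genes in which all SP2509 libraries lay below all vehicle libraries and 6.54% in which all lay above. Since the genes were listed with this contrast known, nothing is read from these counts. In bulk tissue, fewer cells of a type and less RNA per cell cannot be told apart, which holds for every gene below.

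**Figure D1:**
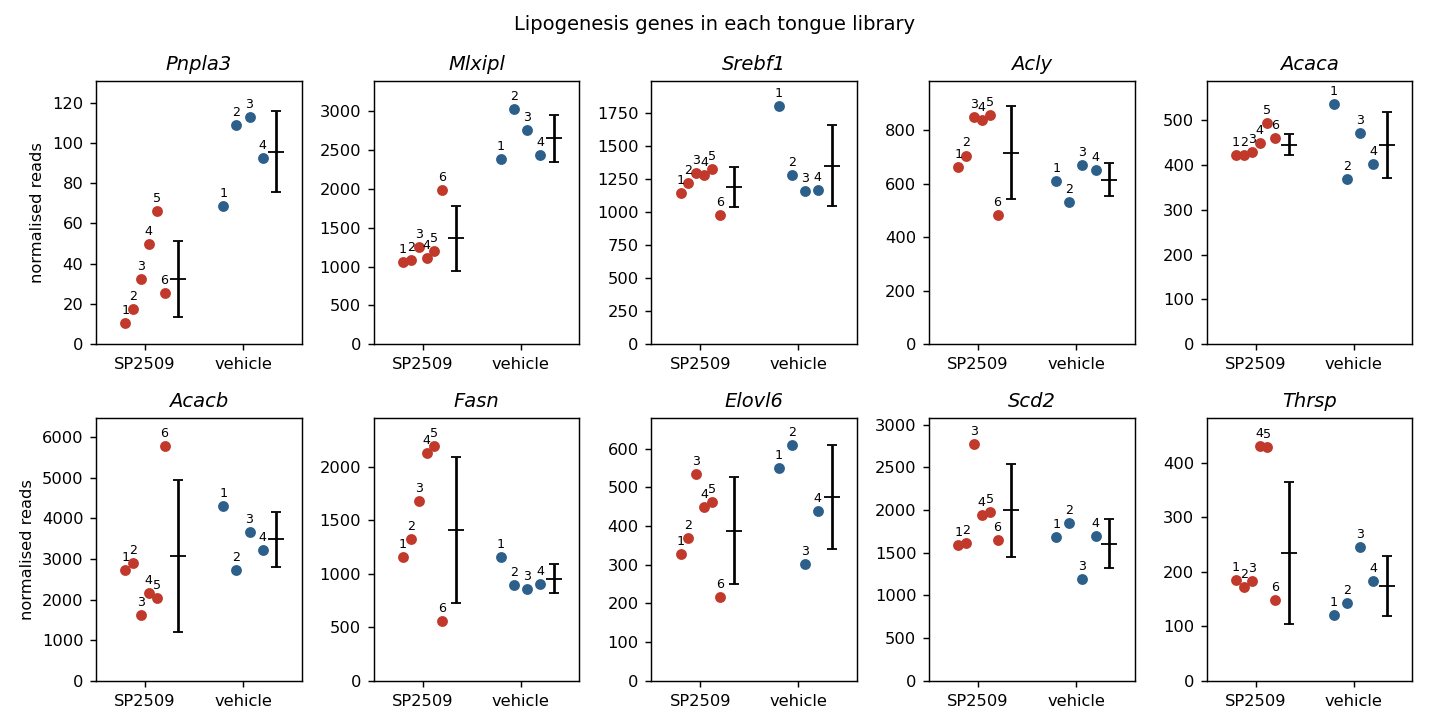
Normalised reads (y axis, from 0 in each panel) of the 10 genes in each library, SP2509 left and vehicle right. Numbers are replicates, and the black marks give mean and SD over 4 units of SP2509 and 4 vehicle libraries. Pnpla3 and Mlxipl are the only panels in which no SP2509 point reaches a vehicle point.

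Pnpla3 (ENSMUSG00000041653, chromosome 15, 84167837 to 84187236, plus strand, GRCm38) had 10.4, 17.3, 32.3, 49.8, 66.2 and 25.2 normalised reads in SP2509 replicates 1 to 6, against 68.6, 109, 113 and 92.5 in vehicle replicates 1 to 4. The highest SP2509 library, replicate 5, lay just under the lowest vehicle library, and the SP2509 libraries spanned a wider relative range than the vehicle libraries. The mean was 32.3 ± 18.7 in SP2509 (SD, n = 4 units) and 95.7 ± 20.1 in vehicle (SD, n = 4), a log2 fold change of -1.70 ± 0.44 (SE, on the scale of value + 1). This is the gene with the fewest reads of the list. It rested on 254 reads in all SP2509 libraries together, with 14 in replicate 1, and on 291 in all vehicle libraries, with 37 in replicate 1. Of its 1548 exon bases, 105 are shared with Gm49513 on the same strand, a gene without values in the deposited data. The labels do not say how reads in those bases were assigned. Among the SP2509 libraries Pnpla3 was highest in replicates 4 and 5, which also held the most adipocyte transcripts. Without these replicates the fold change was -2.20, and it was -1.67 without replicate 6. Pnpla3 left the called genes when any 1 vehicle library or SP2509 replicate 1, 2 or 3 was left out, with the fold change between -1.85 and -1.43 in those fits, and also when the close pairs were averaged (-1.68).

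Mlxipl (ENSMUSG00000005373, chromosome 5, 135089890 to 135138382, plus strand) encodes ChREBP, the factor that couples glucose metabolites to lipogenic and glycolytic genes. It had 1055, 1085, 1250.0, 1112, 1200.4 and 1980.2 normalised reads in SP2509 replicates 1 to 6, against 2390.1, 3033, 2756 and 2433 in vehicle replicates 1 to 4. SP2509 replicates 1 to 5 lay close together, and replicate 6, the library richest in muscle transcripts, stood between them and the vehicle range. The mean was 1364 ± 417 in SP2509 (SD, n = 4 units) and 2653 ± 301 in vehicle (SD, n = 4), a log2 fold change of -1.08 ± 0.17. It stayed among the called genes when any 1 library was left out, with fold changes between -1.21 and -1.01. It left them with the close pairs averaged (-0.997) and with the adipocyte markers as a covariate (-0.92). A gene on the opposite strand, Gm43500, shares 235 exon bases with Mlxipl and averaged 6.39 normalised reads in SP2509 and 9.78 in vehicle.

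The promoters of Pnpla3, Mlxipl and Fasn are printed. Pnpla3 and Mlxipl were lower in every SP2509 library than in any vehicle library, and Fasn was not. Within SP2509 the 2 genes differed, with Pnpla3 highest in replicates 4 and 5 and Mlxipl highest in replicate 6. Whether they share a cause was not tested. RefSeq's table for GRCm38.p6 holds 12 promoters for 9 of the 10 genes. The only windows of Acaca and Acacb begin at 84195188 and 114165268. They lie inside the annotated genes, which start at 84129672 and 114146535, and not upstream of them. The 250 bases before the start were searched on both strands. The search was for an exact form of a sterol regulatory element that SREBP binds, with no mismatch allowed. It was also made for CACGTG, an E-box that ChREBP and USF factors bind. Further targets were 2 such E-boxes 5 bases apart, as in a perfect carbohydrate response element, and CCAAT, which NF-Y binds. Capitals mark the E-box and the NF-Y motif, the NF-Y motif also where it reads ATTGG, its reverse complement.
Pnpla3, chr15:84167566-84167815, plus strand: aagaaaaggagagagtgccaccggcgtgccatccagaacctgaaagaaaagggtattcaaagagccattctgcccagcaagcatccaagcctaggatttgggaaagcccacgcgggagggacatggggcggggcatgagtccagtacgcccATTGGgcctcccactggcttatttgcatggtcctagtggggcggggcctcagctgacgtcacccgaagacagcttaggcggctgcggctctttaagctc
Mlxipl upstream start, chr5:135089640-135089889, plus strand: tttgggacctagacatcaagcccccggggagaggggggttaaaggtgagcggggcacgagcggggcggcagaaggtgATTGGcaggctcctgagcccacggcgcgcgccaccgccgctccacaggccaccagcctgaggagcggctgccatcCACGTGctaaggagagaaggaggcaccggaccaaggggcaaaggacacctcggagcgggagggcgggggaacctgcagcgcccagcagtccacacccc
Mlxipl downstream start, chr5:135106641-135106890, plus strand: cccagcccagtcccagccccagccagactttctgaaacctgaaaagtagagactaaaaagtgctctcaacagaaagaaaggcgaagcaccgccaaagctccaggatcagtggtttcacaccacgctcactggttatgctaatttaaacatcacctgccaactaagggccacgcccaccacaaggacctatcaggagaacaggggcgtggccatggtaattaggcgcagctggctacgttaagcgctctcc
Fasn, chr11:120824548-120824797, minus strand: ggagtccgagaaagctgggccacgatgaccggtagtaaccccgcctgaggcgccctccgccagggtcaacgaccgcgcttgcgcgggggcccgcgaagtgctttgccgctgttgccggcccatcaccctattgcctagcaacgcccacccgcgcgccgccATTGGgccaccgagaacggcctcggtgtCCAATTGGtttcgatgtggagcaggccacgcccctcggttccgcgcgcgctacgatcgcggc

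CACGTG was found in 1 of the 12 promoters, 98 bases before the upstream start of Mlxipl, and in 6.02% of all 32851 promoters of the same length. The 2 starts of Mlxipl lie 17 kb apart, and in mouse the upstream one gives the shorter beta form of ChREBP, which ChREBP itself induces. Reads summed per gene do not tell the forms apart. CCAAT was found in 7 of the 12 promoters, the window inside Acacb among them, against 33.8% of all promoters. The motif lies 99 bases before the start of Pnpla3, 173 before the upstream start of Mlxipl, and 90, 62 and 59 before that of Fasn. The last 2 matches of Fasn overlap in the run CCAATTGG. The exact form of the sterol regulatory element was in none of the 12 and in 0.0731% of all promoters. Forms that differ from it in any base were not searched for. Whether these promoters hold such variant elements was therefore not tested. The paired E-box was in no promoter of the table. These are matches of letters in a short window and say nothing of binding.

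Srebf1 (ENSMUSG00000020538, chromosome 11, 60199089 to 60222581, minus strand), the other lipogenic factor of the list, had 1149, 1224, 1299, 1282, 1328 and 977 normalised reads in SP2509 replicates 1 to 6, against 1806, 1279, 1159 and 1173 in vehicle replicates 1 to 4. Vehicle replicate 1 was high and SP2509 replicate 6 low, and the other 8 libraries lay within 1149 and 1328. The log2 fold change was -0.14 ± 0.14 (SE). Of its exon bases, 109 are shared with Rai1 on the opposite strand, which averaged 746 normalised reads in SP2509 and 959 in vehicle, and the labels do not say whether reads were assigned by strand. Per kb of exon, Mlxipl averaged 246 ± 75.4 normalised reads in SP2509 and 479 ± 54.4 in vehicle, and Srebf1 212 ± 27.2 in SP2509 and 240.3 ± 54.3 in vehicle (SD, n = 4 units each). The gap between these means was larger than either SD in vehicle. In SP2509 it was larger than the SD of Srebf1 and smaller than that of Mlxipl, and it came from replicate 6. Per kb, Mlxipl lay above Srebf1 in every vehicle library and in SP2509 replicate 6, and below it in SP2509 replicates 1 to 5.

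Acly (ENSMUSG00000020917, chromosome 11, 100476353 to 100528000, minus strand) had 664, 706, 851, 840.3, 857 and 482 normalised reads in SP2509 replicates 1 to 6, against 610.0, 531, 670.1 and 652 in vehicle replicates 1 to 4. Replicate 6 was the lowest and replicates 3 to 5 the highest of all libraries, with replicates 1 and 2 near the top of the vehicle range. The log2 fold change was 0.23 ± 0.16, and without SP2509 replicate 6 it was 0.34 and Acly joined the called genes.

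The 2 acetyl-CoA carboxylase genes differed from each other. Acaca (ENSMUSG00000020532, chromosome 11, 84129672 to 84401651, plus strand), whose product supplies malonyl-CoA for synthesis, had 422, 423, 429, 449.6, 494 and 461 normalised reads in SP2509 replicates 1 to 6, against 536, 369, 472 and 403 in vehicle replicates 1 to 4. Every SP2509 library lay within the vehicle range, and the log2 fold change was 0.02 ± 0.12. Acacb (ENSMUSG00000042010, chromosome 5, 114146535 to 114250761, plus strand), whose product sits at the mitochondrial outer membrane, where malonyl-CoA restrains the import of fatty acids for oxidation, had 2724, 2900.3, 1611, 2151, 2042 and 5765 normalised reads in SP2509 replicates 1 to 6, against 4307, 2738, 3657 and 3211 in vehicle replicates 1 to 4. The muscle-rich replicate 6 was the highest of all libraries, and SP2509 replicates 1, 3, 4 and 5 lay below every vehicle library. The log2 fold change was -0.39 ± 0.29, and without SP2509 replicate 6 it was -0.62 and Acacb joined the called genes. Within a library, the level of Acacb over that of Acaca, each per kb of exon, was 11.5, 12.1, 6.66, 8.48, 7.33 and 22.2 in SP2509 replicates 1 to 6 and 14.2, 13.2, 13.7 and 14.1 in vehicle replicates 1 to 4. The 4 vehicle libraries were close to each other in this ratio, 5 SP2509 libraries lay below them and replicate 6 above.

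Fasn (ENSMUSG00000025153, chromosome 11, 120805846 to 120824547, minus strand) had 1157, 1324, 1685, 2131, 2197 and 560.0 normalised reads in SP2509 replicates 1 to 6, against 1155, 895, 857 and 910.5 in vehicle replicates 1 to 4. Replicates 1 to 5 of SP2509 lay above every vehicle library, replicate 1 by a margin of few reads, and replicate 6 lay below every vehicle library. The mean was 1412 ± 682 in SP2509 (SD, n = 4 units) and 955 ± 136 in vehicle (SD, n = 4), a log2 fold change of 0.54 ± 0.32. Without SP2509 replicate 6 the log2 fold change was 0.80 and Fasn joined the called genes, without replicates 4 and 5 it was 0.21, and without all 3 of these it was 0.53 and Fasn was called.

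The values of Elovl6 and Scd2, which act on the finished chain, overlapped between the groups. Elovl6 (ENSMUSG00000041220, chromosome 3, 129532355 to 129638495, plus strand) had 328, 369.5, 533, 450.4, 461 and 216 normalised reads in SP2509 replicates 1 to 6, against 549, 609.6, 303 and 438 in vehicle replicates 1 to 4, a log2 fold change of -0.28 ± 0.25. Only replicate 6 lay outside the vehicle range, below it. Scd2 (ENSMUSG00000025203, chromosome 19, 44293674 to 44306864, plus strand), the desaturase gene of many tissues outside liver, had 1595, 1615, 2773, 1942, 1982 and 1647 normalised reads in SP2509 replicates 1 to 6, against 1685, 1852, 1194 and 1699.7 in vehicle replicates 1 to 4, a log2 fold change of 0.25 ± 0.18. SP2509 replicates 3, 4 and 5 lay above the vehicle range and replicates 1, 2 and 6 within it. Its close copy Scd1, which is not one of the 10 and with which it can share reads, had 788, 775, 627, 2450.4, 2471 and 603 normalised reads in SP2509 replicates 1 to 6, against 395, 430.0, 512 and 673 in vehicle replicates 1 to 4 (log2 fold change 1.10 ± 0.42, limma adjusted p = 0.108). DESeq2 on whole reads called Scd1 (1.34, adjusted p = 0.0163). The limma fold change was 0.49 without SP2509 replicates 4 and 5 and 0.13 with the adipocyte marker level as a covariate, and Scd1 was called in neither. The level of Scd1 over that of Scd2, per kb of exon, was 1.41 and 1.39 in SP2509 replicates 4 and 5, 0.252 to 0.552 in SP2509 replicates 1, 2, 3 and 6, and 0.259 to 0.479 in vehicle.

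Thrsp (ENSMUSG00000035686, chromosome 7, 97412938 to 97417730, minus strand) encodes Spot 14, a nuclear and cytosolic protein that accompanies lipogenesis and is induced by thyroid hormone. It had 185, 172, 182, 431, 428 and 148 normalised reads in SP2509 replicates 1 to 6, against 121, 143, 246 and 184 in vehicle replicates 1 to 4. Replicates 4 and 5 stood apart and the other SP2509 libraries lay within the vehicle range. The log2 fold change was 0.48 ± 0.33, and 0.03 without replicates 4 and 5.

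The order of the levels per kb of exon was led in SP2509 by Scd2 (365 ± 99.1 normalised reads per kb), Acacb (319 ± 193) and Mlxipl (246 ± 75.4), and in vehicle by Mlxipl (479 ± 54.4), Acacb (361 ± 69.4) and Scd2 (294 ± 52.4; SD, n = 4 units each). In SP2509 the mean of Acacb lay within its SD of both others, while Scd2 and Mlxipl differed by more than either of their own SDs. The SP2509 means of Acacb and Mlxipl were raised by replicate 6. It had 5765 and 1980 normalised reads of these genes, against 1611 to 2900 and 1055 to 1250 in SP2509 replicates 1 to 5. In those 5 libraries Srebf1 lay above Mlxipl per kb. At the other end stood Acaca, at 26.1 ± 1.41 in SP2509 and 26.1 ± 4.35 in vehicle, and Pnpla3, at 20.9 ± 12.1 in SP2509 and 61.8 ± 13.0 in vehicle. The exon length used is the union over all annotated transcripts, so exons that the tongue does not use lower a level per kb.

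Library by library, the genes fell into patterns that the group labels do not give. SP2509 replicate 6 was the lowest of the 6 SP2509 libraries in 5 of the 10 genes (Fasn, Acly, Elovl6, Srebf1 and Thrsp) and the highest in 2 (Acacb and Mlxipl). SP2509 replicates 4 and 5 were both above the other SP2509 libraries in 3 genes, Pnpla3, Fasn and Thrsp. Adipoq, the adipocyte hormone gene, had 139 and 143 normalised reads in these 2 libraries, 2.62 to 23.9 in the remaining SP2509 libraries and between 0 and 10.8 in vehicle. Over the 9 adipocyte markers, none was called, 6 of the 7 tested had a positive fold change, and the summed level was 4282 to 6841 in SP2509 and 3406 to 6077 in vehicle, most of it Fabp4, which endothelial cells also express. Fabp4 itself had a log2 fold change of 0.10 ± 0.18 (SE). The negative one was Adrb3 (-0.58 ± 0.36), with 74.7 and 40.7 normalised reads in SP2509 replicates 4 and 5 and 51.2 to 84.5 in vehicle. Adipoq, Plin1, Lep and Pck1 were at 0 in at least 1 library. The mean log2 level of the adipocyte markers was higher by 1.65 in SP2509 (exact permutation test over 210 regroupings, two-sided, p = 0.0905), and by 0.72 without replicates 4 and 5. It lay above every vehicle library in SP2509 replicates 1, 2, 4 and 5, and within the vehicle range of 3.38 to 5.06 in replicates 3 and 6 (4.12 and 4.47). With the close pairs averaged, as for the means above, it was higher by 1.30 (exact permutation test over 70 regroupings, two-sided, p = 0.171).

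**Figure D2:**
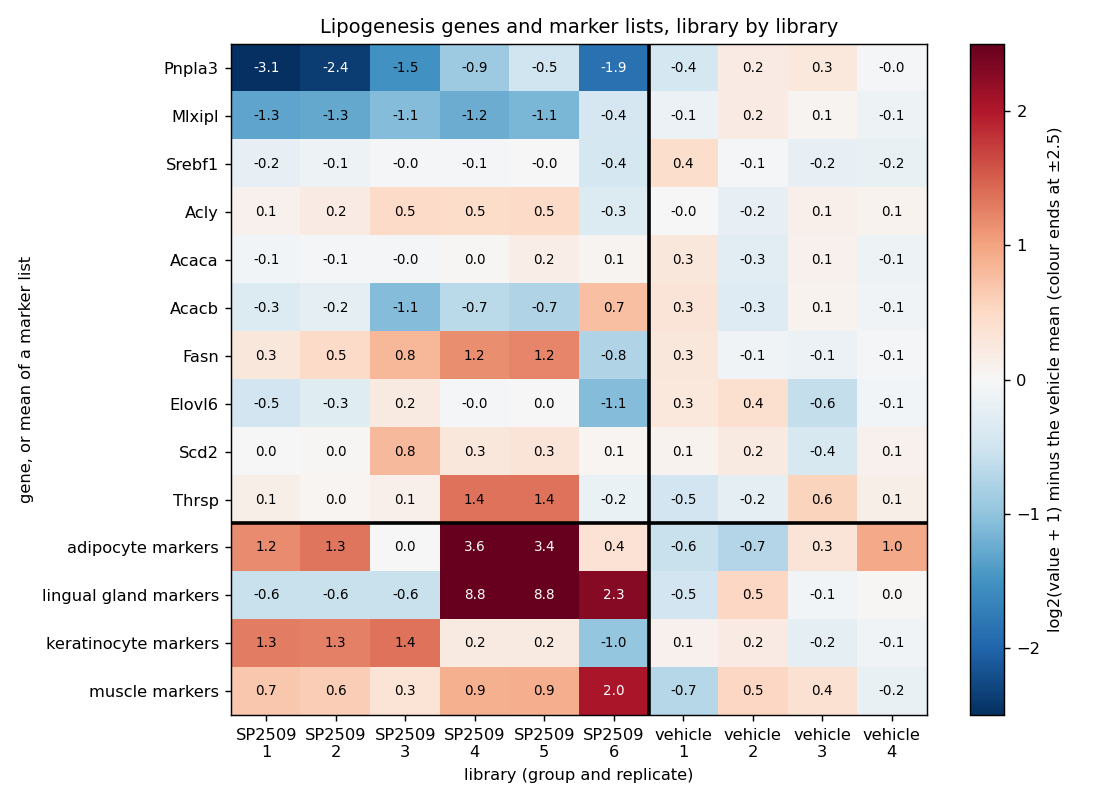
Difference of log2(value + 1) from the vehicle mean (colour and number) for the 10 genes and for the mean of 4 marker lists, with libraries in columns, SP2509 left and vehicle right. SP2509 replicates 4 and 5 stand out in adipocyte and lingual gland markers, Fasn and Thrsp, and SP2509 replicate 6 in muscle markers and Acacb.

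With the adipocyte marker level as a covariate the fold change was -2.26 ± 0.47 for Pnpla3 and -0.92 ± 0.20 for Mlxipl, 0.10 ± 0.33 for Fasn, 0.04 ± 0.18 for Acly and -0.23 ± 0.22 for Thrsp (SE). Pnpla3 and Mlxipl stayed negative, Fasn and Acly came near 0 and Thrsp changed sign. With the muscle marker level as a covariate it was -1.96 for Pnpla3, -1.46 for Mlxipl, 1.17 for Fasn and -0.82 for Acacb, and of the 10 genes Mlxipl alone was called. With the keratinocyte marker level as a covariate it was -1.46 for Pnpla3, -0.92 for Mlxipl, 0.33 for Fasn and -0.13 for Acacb, and Pnpla3 and Mlxipl were called. Lingual gland markers move together with the adipocyte markers in replicates 4 and 5, and their part in these values was not tested.

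**Figure D3:**
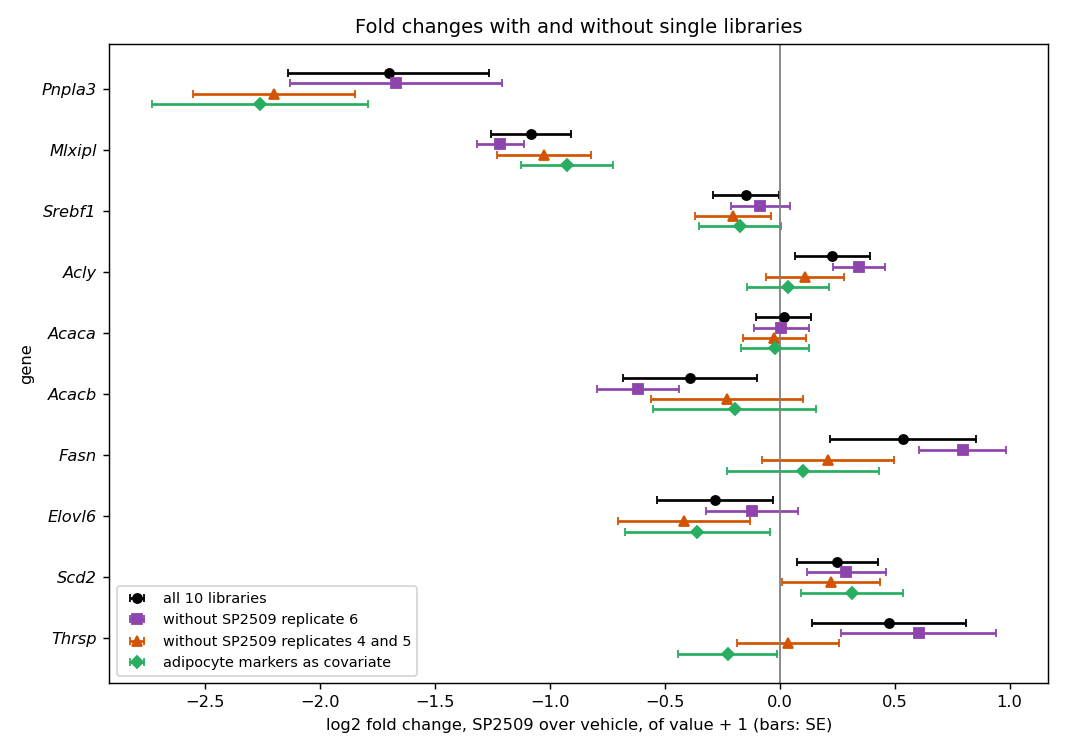
Log2 fold change of SP2509 over vehicle (x axis, bars are SE) of each of the 10 genes in all 10 libraries, without SP2509 replicate 6, without SP2509 replicates 4 and 5, and with the adipocyte marker level as a covariate. Pnpla3 and Mlxipl stay below 0 in all 4 fits, and Fasn ranges between 0.10 and 0.80.

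The genes around this pathway that are not among the 10 were read from the same fit, in 4 lists. Of 86 tested genes 5 were higher and 2 lower with SP2509, or 8.14%, against 9.1% of all genes tested, and their median log2 fold change was 0.11, against 0.02. Of 23 further genes of fatty acid synthesis, elongation, desaturation and NADPH supply, 2 were higher and none lower (median 0.30). That is 8.7%, against 9.1% of all genes tested. Mid1ip1, which encodes the Spot 14 paralog that promotes polymerisation of acetyl-CoA carboxylase, had 529, 570.0, 766, 512, 554 and 938 normalised reads in SP2509 replicates 1 to 6, against 347, 378, 401 and 379.8 in vehicle replicates 1 to 4. All 6 SP2509 libraries lay above every vehicle library (log2 fold change 0.74 ± 0.17, limma adjusted p = 0.0235). Elovl5, an elongase of polyunsaturated chains, was likewise higher in 6 of 6 SP2509 libraries (479 ± 45.8 in SP2509 and 339.6 ± 62.4 in vehicle, SD, n = 4 units each; 0.55 ± 0.13, limma adjusted p = 0.0314).

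Of 21 regulators none was called, against 9.1% of all genes tested. The SREBP-retaining gene Insig1, itself a target of SREBP, was at 0.29 ± 0.31 (limma adjusted p = 0.572) and had 138 to 460.0 normalised reads in SP2509, a range wider than the 193 to 291 of vehicle. Nr1h3, which encodes the oxysterol receptor LXR-alpha, an inducer of Srebf1, was at -0.22 ± 0.13 (limma adjusted p = 0.303). Of the 13 tested genes that SREBP, ChREBP or LXR proteins induce outside fatty acid synthesis 1 was lower. That is 7.69%, against 9.1% of all genes tested. Arrdc4, an arrestin-domain gene induced by glucose through ChREBP and its relative MondoA, had 239, 252, 258, 249, 258 and 247 normalised reads in SP2509 replicates 1 to 6, against 456, 375, 307 and 344 in vehicle replicates 1 to 4 (-0.55 ± 0.12, limma adjusted p = 0.021). The 6 SP2509 libraries were nearly level and below every vehicle library. Its relative Txnip, a target of the same factors, was at -0.63 ± 0.24 (limma adjusted p = 0.113). Of the cholesterol branch of SREBP targets, Hmgcs1 was at 0.59 ± 0.25 (limma adjusted p = 0.144). Txnip and Hmgcs1 were chosen after their values were seen.

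Of 29 tested genes of triglyceride synthesis and lipid droplets, the longest of the 4 lists, 3 were higher and 1 lower (median 0.07), or 13.8%, against 9.1% of all genes tested. Dgat2, which encodes the acyltransferase of the last step of triglyceride synthesis, had 895, 865, 889, 867, 799.8 and 2256 normalised reads in SP2509 replicates 1 to 6, against 386, 536, 655 and 469.6 in vehicle replicates 1 to 4 (1.01 ± 0.27, limma adjusted p = 0.0377). Every SP2509 library lay above the vehicle range, replicate 6 far above it, and without replicate 6 the log2 fold change was 0.78 (limma adjusted p = 0.00313). Abhd5, the co-activator of the lipase ATGL that PNPLA3 protein can bind, was higher in 6 of 6 SP2509 libraries (272 ± 25.9 in SP2509 and 179 ± 20.4 in vehicle, SD, n = 4 units each; 0.57 ± 0.12, limma adjusted p = 0.0201). Agpat2, an acyltransferase of phosphatidic acid synthesis, was higher (0.57 ± 0.15, limma adjusted p = 0.0361) and Lpin3, a phosphatidate phosphatase gene, was lower in 6 of 6 SP2509 libraries (-0.65 ± 0.17, limma adjusted p = 0.0351). Pnpla2, the gene of ATGL a relative of Pnpla3, had 1936 to 5468 normalised reads in SP2509 and 1597 to 2473 in vehicle (0.37 ± 0.27, limma adjusted p = 0.378), with the highest value in SP2509 replicate 6. With the close pairs averaged none of these 7 called genes passed (limma adjusted p between 0.0728 and 0.122). Leaving out vehicle replicate 1 also ended all 7 calls, and the calls of Dgat2, Elovl5, Agpat2 and Lpin3 were lost in 7 to 9 of the 10 fits that left out 1 library. With the muscle marker level as a covariate only Elovl5 of the 7 passed, and the fold change of Dgat2 was 0.33 (limma adjusted p = 0.282). With the adipocyte marker level as a covariate only Mid1ip1 and Abhd5 passed.

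**Figure D4:**
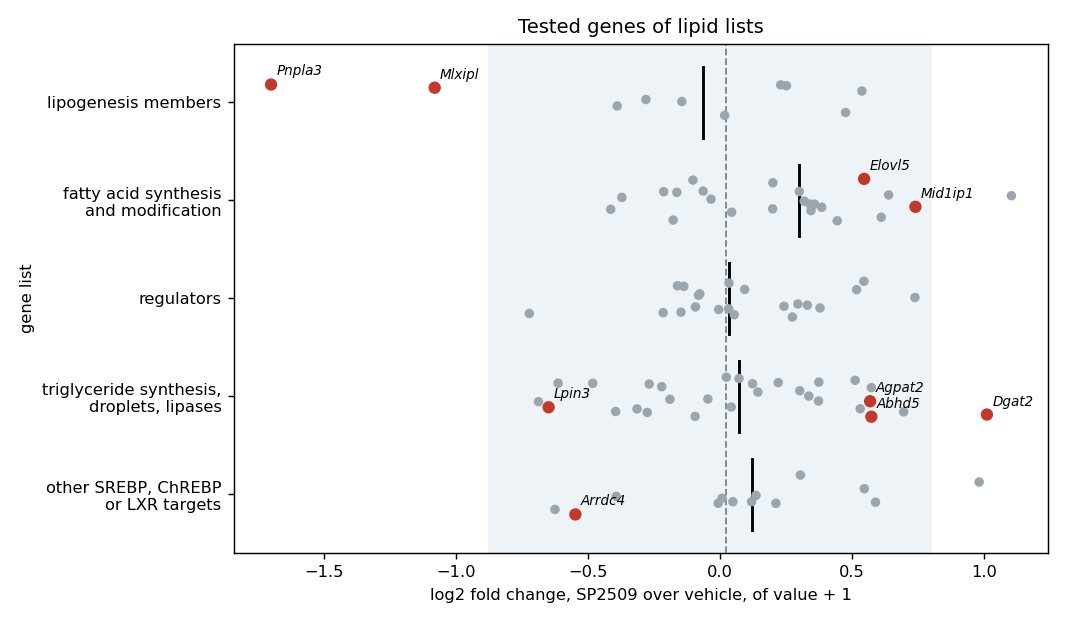
Log2 fold change of SP2509 over vehicle (x axis) of the tested genes of 5 lists (rows). Red points with names are genes with a limma adjusted p under 0.05 and black lines are list medians. The dashed line is the median and the shaded band the 5th to 95th percentile of all genes tested, from -0.87 to 0.80, and Pnpla3 and Mlxipl lie left of it.

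The 5 genes whose log2 values followed Pnpla3 most closely over the 10 libraries, among 11962 with a mean of at least 50, were Prkag2os1, Zcwpw1, Dapk1, Mpp3 and Inpp5j. Their root mean square distance from Pnpla3, after centring each gene, was 0.62 to 0.65 on the log2 scale. Those nearest to Fasn were Prss16, Cblc, Tcf19, Ptges and Pdia3, at 0.19 to 0.22. Fasn, highest in SP2509 replicates 4 and 5 and lowest in replicate 6, thus lay at smaller distances from its nearest genes than Pnpla3. The distance is not scaled to the range or the read number of a gene. Pnpla3 had fewer reads and a wider relative range, so the distances do not tell which pattern is the more common. Pdia3, an ER folding enzyme gene, had 2664, 2499, 3563, 5220.2, 5098 and 1774 normalised reads in SP2509 replicates 1 to 6, against 2199, 2379, 1719 and 2071 in vehicle replicates 1 to 4.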

How the data were processed

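The authors deposited a signal per gene and library that equals read counts divided by 1 size factor per library. This was read from the values: 100% of values, divided by the worth of 1 read in their library, came within 0.01 of a whole number, and whole reads were recovered in this way. HISAT2, featureCounts and the build mm10 are named, per the submitters' processing notes, with no annotation or strand setting. Of 27151 gene IDs, 27113 were matched to a symbol, with exon lengths from GENCODE M21.

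limma (3.58.1, R 4.3.3) was fitted on log2(value + 1) with robust moderation of variances along a mean trend, two-sided, over 10 libraries, for the 17088 genes that reached 10 normalised reads in 4 or more libraries, with Benjamini-Hochberg adjustment over all of them. Fold changes on this scale understate low genes. On the recovered reads DESeq2 (1.42.0) and edgeR (4.0.16), other pseudocounts, filters and scalings, covariates, a replicate block, averaged pairs and left-out libraries were alternatives. The scripts were tested on simulated data. For each pair of libraries the squared difference was divided by the Poisson variance, as a scaled median over genes. Pairs were averaged where this variance ratio rose by under 5 between genes of low and of high read counts. That limit was chosen after seeing the data. The rise was 0.208 and 1.08 in these 2 pairs and 8.29 or more in all other pairs of one group. The labels do not say whether libraries come from separate mice, so p-values measure the spread between libraries.

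The 10 genes, the lists and the tests were chosen with earlier results of these data known. Named were the 10 genes, every called gene of the 4 lists, 6 preset genes, and the 5 genes closest to Pnpla3 and to Fasn. Single adipocyte markers and genes that share exons with the 10 were also named, and others are marked. Pnpla5, one of the preset genes, was not found by symbol in the deposited table and has no values here. Counting error is given as reads per group for Pnpla3. Figures were drawn with matplotlib 3.10.9, and tables with NumPy 2.4.6, SciPy 1.17.1 and pandas 2.3.3 under Python 3.11.15. Promoters come from RefSeq (GRCm38.p6).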

Additional observations from a re-analysis of the deposited data

Results flagged for a closer look

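In 42 groups of 4 values (10 genes of the list and 11 further named genes, in SP2509 and in vehicle, with close pairs averaged), 4 held a library or unit far from the others of its group. The limit used would flag about 1 in 20 independent groups. These groups share the same libraries and are not independent, so the 4 cannot be weighed against that rate. Thrsp averaged 429 normalised reads in the unit of SP2509 replicates 4 and 5, against 148 to 182 in the other SP2509 units. Scd1 averaged 2461 in the same unit, against 603 to 782. Dgat2 had 2256 in SP2509 replicate 6, against 833 to 889 in the other SP2509 units, and Pnpla2 had 5468 in replicate 6, against 1936 to 2275.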

How the results depend on the processing

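Pnpla3 and Mlxipl had a negative log2 fold change in all 28 alternatives, between -2.31 and -1.43 for Pnpla3 (called in 18) and between -1.46 and -0.92 for Mlxipl (called in 26). Fasn, Acly and Scd2 stayed positive and Acacb negative in all 28, while the sign of Acaca, Elovl6, Srebf1 and Thrsp changed in at least 1. Thrsp was at -0.23 with the adipocyte covariate. Only Pnpla2 among the further named genes changed sign, to -0.30 with muscle markers as a covariate. In all 10 libraries 846 genes were higher and 709 lower, 2 of the 10 genes and 7 of the neighbouring lipid genes were called. With close pairs averaged these counts were 0, 0, 0 and 0 (limma; the lowest adjusted p was 0.0718, and 3632 genes had p under 0.05 before adjustment), while edgeR on the 10 libraries called 906 higher and 577 lower genes. Without a filter 553 genes were higher. Without a trend the counts were 458, 448, 1 and 3. DESeq2 called 1618 higher and 1388 lower genes and 11 neighbouring genes. The adipocyte covariate gave 133, 70, 1 and 2, and the keratinocyte covariate gave 1547 higher, 1144 lower and 17 neighbouring genes. The muscle covariate left 1 of the 10 genes and 14 neighbouring genes. Without SP2509 replicates 4 and 5 there were 219 higher, 156 lower and 1 neighbouring gene, and without replicates 4, 5 and 6 there were 1584, 1122 and 18. Leaving out 1 library gave 171 (without vehicle replicate 1) to 1971 (without SP2509 replicate 6) higher genes, 107 to 1488 lower genes, 1 to 5 of the 10 genes and 0 to 22 neighbouring genes, the lowest of each without vehicle replicate 1 and the highest without SP2509 replicate 6. The adipocyte marker level differed by 1.26 to 1.98 in these fits, and passed only without SP2509 replicate 3 (1.98, exact permutation p = 0.0397). The causes were not tested. The replicate numbers did not pair the libraries (correlation of same-numbered deviations -0.198 to 0.126). A replicate block over replicates 1 to 4 called 15 neighbouring genes, Scd1 among them (limma adjusted p = 0.0241, against 0.125 without the block), and 3 of the 10 genes, and the same libraries without a block gave 1578 higher, 1139 lower and 20 neighbouring genes. Pnpla3, with 14 to 103 reads per library, is where depth limits precision most.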
